A study of Mus musculus with 6 samples.

Results

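The genes described here are 58 genes of DNA replication, mitosis and the cyclins, taken from the deposited table of read counts by their gene symbols, out of 17830 genes in the table. All 58 were found, and the lowest count of any of them in any library was 52 reads. They were divided into 3 classes by their known roles: 24 genes of S phase and of the entry into it, 29 genes of G2 phase and mitosis (G2/M), and 5 genes of the G1 cyclins, which are the D-type cyclins and their kinases. The libraries were bulk RNA sequencing of tdTomato-positive cells sorted from cultures of skull bone fragments of mice aged 6 months, labelled as osteoblasts, the cells that build bone. The 3 control libraries came from mOCN-Cre; Ai9 mice and the 3 APPswe libraries from TgAPPswe mOCN-Cre; Ai9 mice, so that both groups carried the Cre and the reporter and differed in the transgene for APPswe, a mutant human amyloid precursor protein. Cre was made from a cassette placed at the end of the osteocalcin gene, and Ai9 turns on the red protein tdTomato where Cre has acted. The sources used here do not say how many mice stood behind each library, so p-values measure the spread between these libraries, which may be technical in part.

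The cell cycle is driven by cyclins and the kinases they activate. In G1 the D-type cyclins bind Cdk4 or Cdk6, which inactivate the retinoblastoma protein and free the E2F transcription factors to switch on the genes of replication, while the genes of mitosis are switched on later. The abundance of S phase and G2/M transcripts in a tissue is therefore widely read as a measure of how many of its cells are cycling, whereas D-type cyclins answer to growth factors and can be abundant in cells that do not divide. In bone, precursor cells divide and mature osteoblasts largely do not. Since the libraries were made from bulk RNA, fewer cycling cells and less RNA of these genes per cell cannot be told apart.

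Levels are given as CPM, in which each library is brought to the same depth by TMM normalization, and total counts lay between 17263757 and 18398392 per library. Control replicate 2, the library named Ctrl-S, stood apart from the other libraries. It held none or next to none of the 4 Y-linked genes listed (summed level 0.112 CPM, against 127 to 197 CPM in the other libraries), although the study describes male mice, and 4 of 12 osteoblast markers (Bglap, Ibsp, Dmp1 and Phex) had at most 3 counts there. All 13 macrophage markers were above 3 counts in every library, with a summed level of 18587 to 25589 CPM in control and 12908 to 13946 CPM in APPswe libraries, beside 20392 to 21416 CPM and 16339 to 17212 CPM for the osteoblast list. The summed level of 10 skeletal muscle markers was 2.71 to 12.6 CPM in control and 183 to 188 CPM in APPswe libraries, that of 7 osteoclast markers 158 to 287 CPM and 595 to 606 CPM, and that of 8 stromal fibroblast markers 2101 to 3722 CPM and 6112 to 6243 CPM. Single genes weighed heavily in some of these sums. In the macrophage list it was Lyz2 (9772 to 16084 CPM in control, 7148 to 7879 CPM in APPswe libraries). The median macrophage marker lay at 574 to 754 CPM and 407 to 464 CPM. Csf1r was higher in APPswe libraries (935 to 939 CPM) than in control replicates 1 and 3 (778 and 820 CPM). It had 1362 CPM in control replicate 2. Ptprc overlapped control replicates 1 and 3, and the other macrophage markers lay below both. In the stromal list it was Col3a1 (1134 to 2157 CPM in control, 4744 to 4888 CPM in APPswe libraries), while the median gene of the list lay at 154 to 259 CPM and 230 to 242 CPM. In each control library the largest gene of the osteoblast list was Spp1 (6092 to 9315 CPM, against 3472 to 3691 CPM in APPswe libraries). Runx2, Sp7, Alpl and Sparc were higher in every APPswe library than in every control library. Spp1, Bglap, Bglap2, Ibsp, Dmp1, Phex and Col1a2 were lower in every APPswe library than in control replicates 1 and 3. Col1a1 overlapped them. Dmp1 had 15.1, 0.112 and 14.3 CPM in control replicates 1, 2 and 3 and 0.673 to 0.891 CPM in APPswe libraries. The median gene of the osteoblast list lay at 1.91 to 33.8 CPM in control and 43.5 to 44.1 CPM in APPswe libraries. The 5 endothelial markers summed to 190.0 and 196 CPM in control replicates 1 and 3, 26.8 CPM in control replicate 2, and 9.47 to 11.1 CPM in APPswe libraries. In control replicate 2 Kdr alone had 25.5 CPM. Pecam1, Cdh5 and Emcn had 1, 6 and 2 counts there, fewer than in any APPswe library. The markers of lymphocytes and granulocytes reached at most 1.78 CPM and those of red cells were at or under 3 counts in all 6 libraries. What part these differences had in the results below was not tested. The genotypes were therefore compared with all 6 libraries and again with 5, without control replicate 2.

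The comparison asked whether genes of cell division differed between the genotypes. The direction for the G2/M class turned on 1 library, as did the size of the difference for the S phase class. The mean level over the 24 S phase genes, in log2 CPM, was 4.85, 5.80 and 4.87 in control replicates 1, 2 and 3, and 4.69, 4.78 and 4.73 in APPswe replicates 1, 2 and 3. For the 29 G2/M genes it was 4.29, 5.72 and 4.23 in control and 4.48, 4.41 and 4.41 in APPswe libraries. Control replicate 2 was thus the highest library in both classes. For G2/M the APPswe libraries lay between it and the other control libraries, while for S phase they lay below all 3. The 5 G1 cyclin genes had mean levels of 7.997, 8.14 and 8.08 log2 CPM in control and 7.45, 7.48 and 7.49 in APPswe libraries. As for S phase, the groups did not overlap with or without control replicate 2, but here that library lay close to the other controls.

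**Figure D1:**
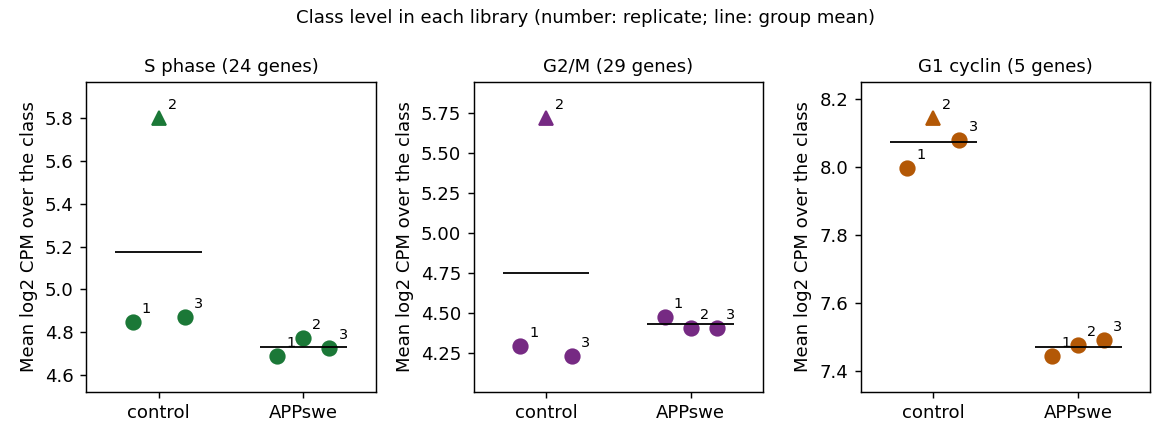
Mean level of each class (log2 CPM, vertical axes, which do not start at 0) in the 3 control and 3 APPswe libraries, with the replicate number beside each point, a triangle for control replicate 2 and a line for the group mean. Control replicate 2 stands at 5.80 for S phase and 5.72 for G2/M, above every other library. The APPswe libraries lie below all control libraries for S phase and for the G1 cyclins. For G2/M they lie between control replicate 2 and the other controls.

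Within control, replicate 2 exceeded the mean of replicates 1 and 3 by a median factor of 1.80 over the S phase genes (range 1.11 to 4.36), 2.85 over the G2/M genes (range 1.78 to 3.34) and 1.09 over the G1 cyclin genes (range 0.935 to 1.22), where the median over all genes tested was 0.992. It was the highest of the 6 libraries for 24 of 24 S phase genes, 29 of 29 G2/M genes and 3 of 5 G1 cyclin genes, against 28.0% of all 13484 genes tested. The largest factor belonged to Ccne2, the E-type cyclin that starts replication with Cdk2. It stood at 27.5 CPM in control replicate 2, at 6.76 and 5.87 CPM in control replicates 1 and 3, and at 8.63, 8.97 and 8.04 CPM in the APPswe libraries. Smaller factors were those of E2f1 (1.11), Ung (1.14) and Rrm2 (1.22). As 1 library, control replicate 2 allows no test of this difference.

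**Figure D2:**
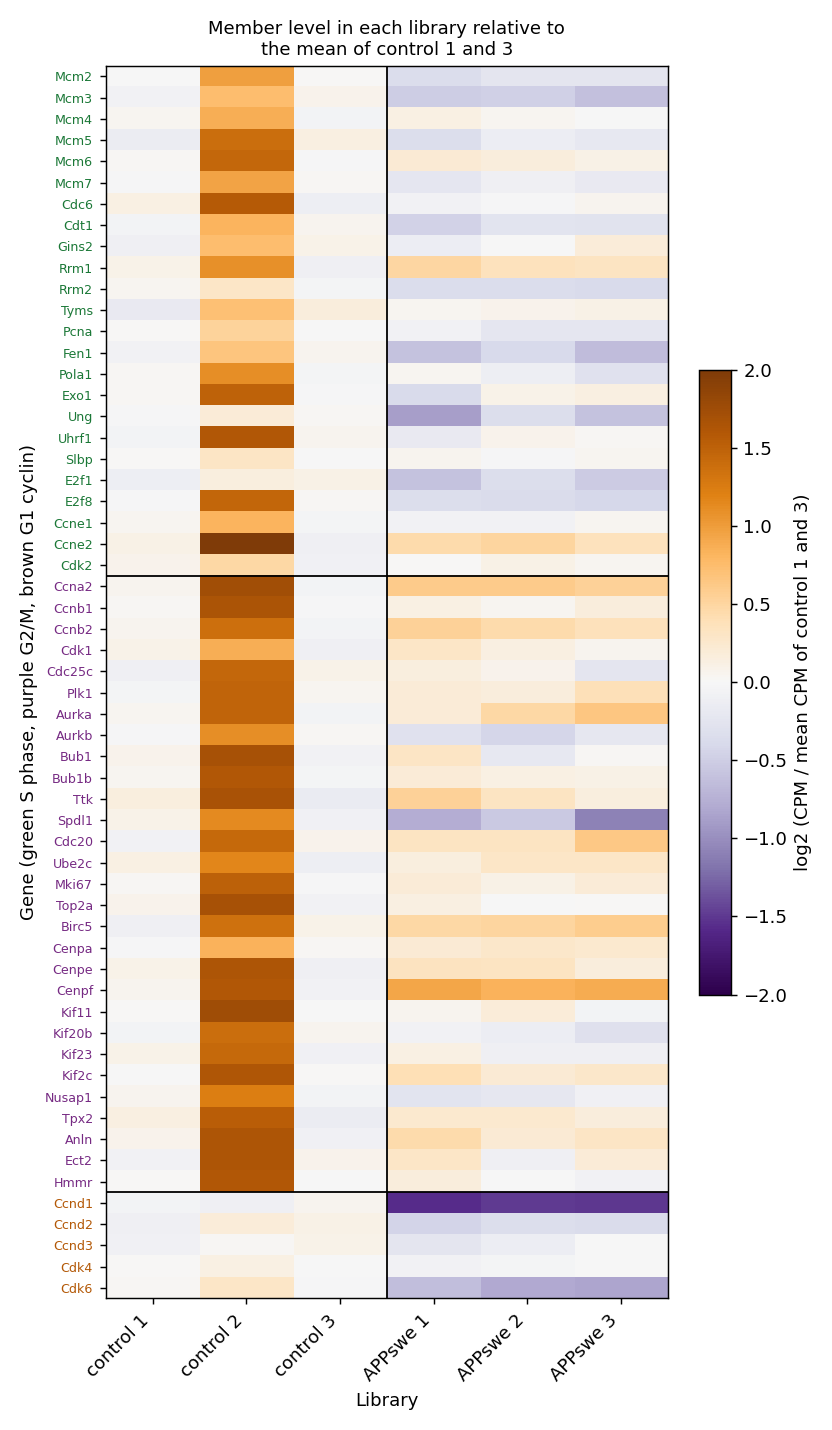
Level of each of the 58 genes (rows) in each library (columns) as log2 of its CPM over the mean CPM of control replicates 1 and 3, with orange above and purple below that mean and the scale ending at 2 in both directions. The orange column of control replicate 2 covers S phase and G2/M and ends at the G1 cyclin genes, where the dark purple cells of Ccnd1 mark the APPswe libraries.

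With all 6 libraries, 57 of the 58 log2 fold changes of APPswe against control were negative, as were 50.4% of those of all genes tested. The class medians were -0.57 for S phase, -0.49 for G2/M and -0.45 for the G1 cyclins, against -0.0033 over all genes tested. At a Benjamini-Hochberg adjusted p of at most 0.05 in edgeR's quasi-likelihood test, 8 of the 58 genes fell, which is 13.8% of them where 12.0% of all 13484 genes tested passed in this direction and 22.5% in either. They were Ccnd1, Ccnd2 and Cdk6 of the G1 cyclins, Mcm3, Fen1, Rrm2 and E2f1 of S phase, and Spdl1 of G2/M. No member was higher in the same test, where 10.5% of all genes passed, and none was higher at an unadjusted p of at most 0.05 in edgeR or DESeq2. Ccnd1 and Spdl1 also passed the absolute log2 fold change of 1 that the study asks for, as did 3.60% of all genes in this direction, and 0 members were higher by that rule (3.74% of all genes). For 17 of the 58 genes every APPswe value was under every control value, a pattern found for 22.2% of all genes tested, and for 0 were they all above (22.8% of all genes).

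Without control replicate 2 the direction turned for 31 of the 58 genes. Of the 58, 13 were higher and 13 lower at an adjusted p of at most 0.05 in edgeR's test, or 44.8% together, where 23.3% of all 13753 genes tested were higher and 25.0% lower, 48.3% in all. The members as a whole therefore stood near the background. The classes are described by their counts, and the difference between them was not tested. In S phase 8 genes fell and 2 rose, and the class median was -0.072. In G2/M 11 genes rose and 2 fell, and the median was 0.17. Among the G1 cyclins 3 of 5 fell, with a median of -0.38. The median over all genes tested was 0.015. Only Ccnd1 passed the study's fold threshold too (6.58% of all genes were lower by that rule and 4.87% higher). All 8 genes that passed with 6 libraries also passed with 5, in the same direction, although both comparisons share 5 libraries.

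**Figure D3:**
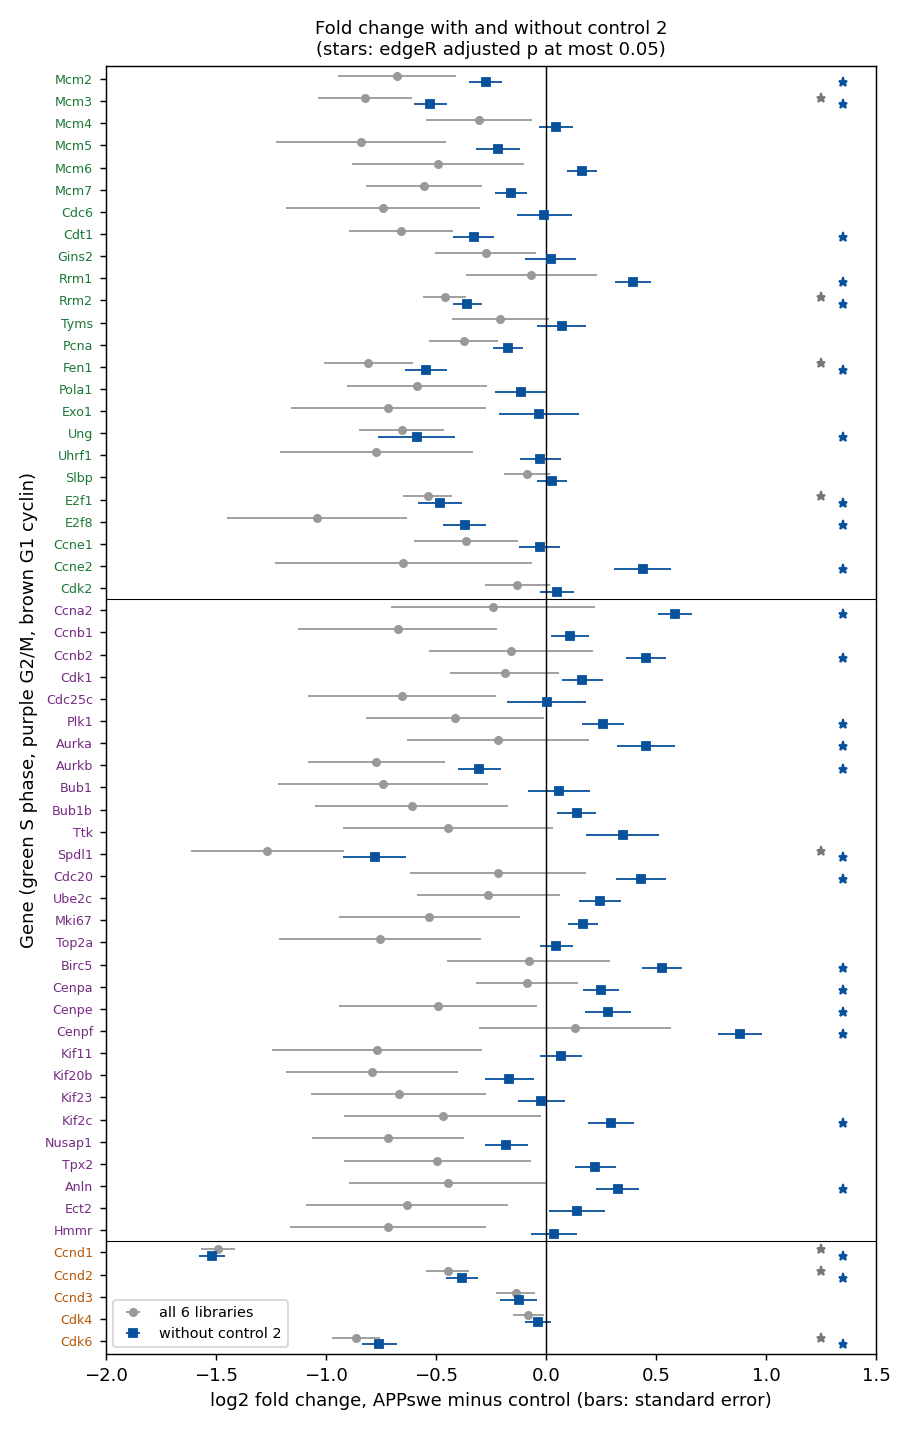
Log2 fold change of APPswe minus control for each of the 58 genes (horizontal axis, bars are standard errors) with all 6 libraries in grey and without control replicate 2 in blue, with stars at the right for an edgeR adjusted p of at most 0.05. The grey points lie left of 0 apart from Cenpf, the blue points of G2/M lie mostly right of it, and Ccnd1 lies near -1.5 under both.

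The G1 cyclin class held the largest change. Ccnd1, which encodes cyclin D1 and couples growth factor signals to the cell cycle, had 989.6, 964 and 1072 CPM in control replicates 1, 2 and 3, and 348, 367 and 362 CPM in the APPswe libraries. The groups were far apart, and control replicate 2 lay with the other controls. Ccnd1 fell, with a mean of 1008 ± 56.4 CPM in control and 359 ± 10.3 CPM in APPswe libraries (SD, n = 3 in both groups). Its log2 fold change was -1.49 (standard error, SE, 0.08; edgeR adjusted p = 0.000296), or -1.52 (SE 0.06, edgeR adjusted p = 1.73e-08) without control replicate 2. It was the only member to pass with a log2 fold change beyond 1 in both comparisons, and it passed with each library left out in turn.

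Cdk6, a kinase partner of the D-type cyclins, had 85.6, 102 and 82.2 CPM in control and 53.8, 47.9 and 46.9 CPM in APPswe libraries. Every APPswe library lay below every control library, and the log2 fold change was -0.86 (SE 0.11, edgeR adjusted p = 0.00337), or -0.76 (SE 0.08, edgeR adjusted p = 1.88e-05) without control replicate 2. Ccnd2, the gene of cyclin D2, had 527, 644 and 608 CPM in control and 417, 448 and 439 CPM in APPswe libraries. These groups did not overlap either, at a log2 fold change equal to -0.45 (SE 0.10, edgeR adjusted p = 0.0199), or -0.38 (SE 0.07, edgeR adjusted p = 0.00134) without control replicate 2. Ccnd2 lost its 6-library call without control replicate 3 and without any one of the APPswe libraries, at adjusted p-values up to 0.0891 in edgeR's test, whereas Cdk6 kept it with each library left out.

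The other two genes of the class did not pass. Ccnd3, the gene of cyclin D3, had 115, 125 and 129 CPM in control and 103, 111 and 121 CPM in APPswe libraries, which overlap, and its log2 fold change was -0.14 (SE 0.09, edgeR adjusted p = 0.30). Cdk4, the other D-type cyclin kinase, had 213, 229 and 209 CPM in control and 200.2, 205 and 210.3 CPM in APPswe libraries, a log2 fold change equal to -0.079 (SE 0.07, edgeR adjusted p = 0.462). Between these genes levels can be compared only per transcript length, as in the deposited FPKM values. On that scale Ccnd1 took 58.8% to 63.0% of the summed level of the 3 D-type cyclins in control and 40.5% to 41.4% in APPswe libraries. Ccnd2 took 20.5% to 24.5% and 30.0% to 30.8%, and Ccnd3 took 16.5% to 16.7% and 27.9% to 29.6%. Ccnd1 was the highest of the 3 in every library, at 266 to 292 FPKM in control and 102 to 106 FPKM in APPswe libraries. Cdk4 lay at 175 to 193 FPKM in all 6 libraries, far above Cdk6, which had 7.01 to 8.89 FPKM in control and 4.22 to 4.94 FPKM in APPswe libraries.

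**Figure D4:**
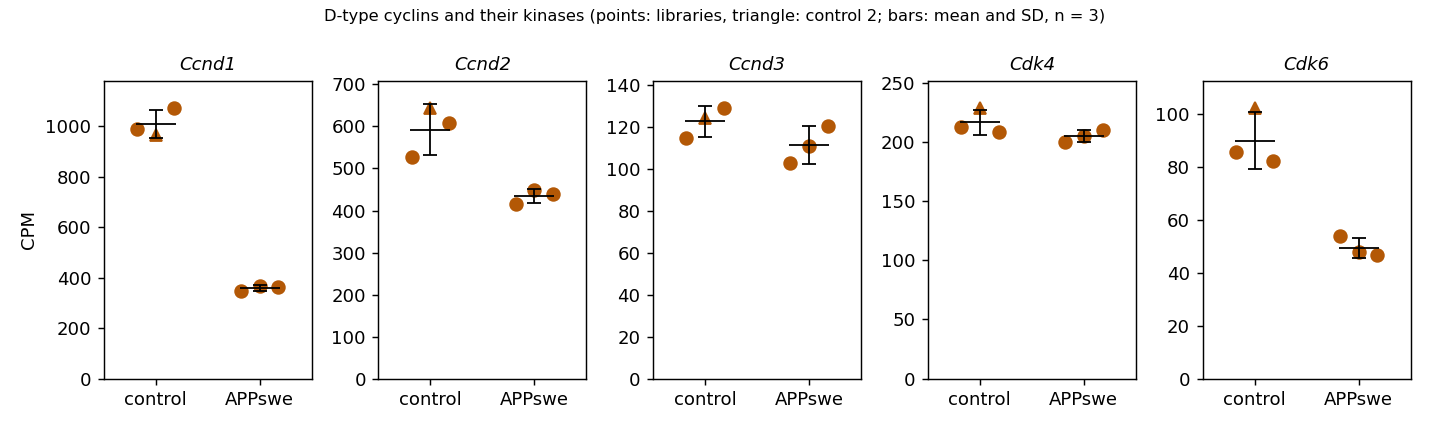
Level in CPM (vertical axes from 0) of the D-type cyclin genes and of Cdk4 and Cdk6 in each library, with a triangle for control replicate 2 and bars for the mean and SD (n = 3). The APPswe libraries lie below all control libraries for Ccnd1, Ccnd2 and Cdk6, and overlap them for Ccnd3 and Cdk4.

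Among the S phase genes, 9 set up and open replication origins. Of these, 1 fell with 6 libraries (11.1%, against 12.0% of all genes tested). Without control replicate 2, 3 fell (33.3%, against 25.0% of all genes tested). In both comparisons 0 rose, where 10.5% and 23.3% of all genes did. Mcm2 to Mcm7 encode the 6 subunits of the ring-shaped helicase that unwinds DNA. Mcm3 had 64.3, 113 and 70.4 CPM in control and 47.6, 48.5 and 44.1 CPM in APPswe libraries, and fell by a log2 fold change equal to -0.82 (SE 0.21, edgeR adjusted p = 0.0357), or -0.52 (SE 0.08, edgeR adjusted p = 0.000253) without control replicate 2. Mcm6 had 65.0, 174 and 63.0 CPM in control and 74.5, 71.4 and 69.0 CPM in APPswe libraries, so that the APPswe libraries lay above control replicates 1 and 3 and below control replicate 2. Its log2 fold change was -0.49 with 6 libraries and 0.16 with 5, and neither passed. Mcm2 fell without control replicate 2 (log2 fold change -0.27, SE 0.08, edgeR adjusted p = 0.0122) and did not pass with it (-0.68, SE 0.27, adjusted p = 0.117). Mcm5 passed in neither, at -0.84 (SE 0.38, edgeR adjusted p = 0.163) and -0.22 (SE 0.10, adjusted p = 0.0908), nor did Mcm4 and Mcm7. Of the loading factors, Cdt1 fell without control replicate 2 (-0.33, SE 0.09, edgeR adjusted p = 0.0142). Cdc6 was at -0.0066 (SE 0.13, adjusted p = 0.97) in that comparison and at -0.74 (SE 0.44, adjusted p = 0.267) with 6 libraries. Gins2, of the helicase's GINS complex, passed in neither.

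The nucleotide supply was represented by 3 genes. Ribonucleotide reductase makes the DNA building blocks from a large subunit, Rrm1, and a small one, Rrm2. Rrm2 had 80.1, 95.2 and 76.4 CPM in control and 61.3, 61.2 and 60.3 CPM in APPswe libraries, without overlap, and fell by a log2 fold change equal to -0.46 (SE 0.10, edgeR adjusted p = 0.0191), or -0.36 (SE 0.07, edgeR adjusted p = 0.00124) without control replicate 2. Rrm1 had 101, 201 and 88.6 CPM in control and 133, 121 and 118 CPM in APPswe libraries. It rose by 0.40 (SE 0.08, edgeR adjusted p = 0.0022) without control replicate 2 and stood at -0.066 (SE 0.30, edgeR adjusted p = 0.894) with it. Tyms, the thymidylate synthase gene, passed in neither comparison.

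At the replication fork, Fen1, a nuclease that trims the flaps of lagging strand fragments, had 37.2, 62.1 and 40.7 CPM in control and 25.6, 29.6 and 24.8 CPM in APPswe libraries. The groups did not overlap, and the log2 fold change was -0.81 (SE 0.20, edgeR adjusted p = 0.0327), or -0.54 (SE 0.09, edgeR adjusted p = 0.000812) without control replicate 2. Ung, which removes uracil from DNA, was lower by -0.59 (SE 0.18, edgeR adjusted p = 0.018) without control replicate 2, at 2.92 to 5.47 CPM over those libraries. Pcna, the sliding clamp of the polymerases, had 214, 306 and 209.8 CPM in control and 202, 182 and 180.3 CPM in APPswe libraries. All APPswe libraries lay lower, but Pcna passed neither test, at -0.37 (SE 0.16, edgeR adjusted p = 0.136) and -0.17 (SE 0.07, edgeR adjusted p = 0.0591). Pola1, Exo1, Uhrf1 and Slbp did not pass either.

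Of the genes of S phase entry, E2f1 encodes an activating E2F factor, and E2f8 encodes a repressing one that E2F1 itself induces. E2f1 had 41.1, 49.5 and 48.1 CPM in control and 29.3, 35.2 and 31.1 CPM in APPswe libraries, without overlap, and fell by a log2 fold change equal to -0.54 (SE 0.11, edgeR adjusted p = 0.0178), or -0.48 (SE 0.10, edgeR adjusted p = 0.0025) without control replicate 2. E2f8 had 14.5, 40.5 and 14.8 CPM in control and 11.7, 11.4 and 10.96 CPM in APPswe libraries, and passed only without control replicate 2 (-0.37, SE 0.10, edgeR adjusted p = 0.0101). Ccne2 rose by 0.44 (SE 0.13, edgeR adjusted p = 0.0166) in that comparison and stood at -0.65 (SE 0.58, edgeR adjusted p = 0.46) with 6 libraries. Ccne1, the other E-type cyclin, was at -0.029 (SE 0.09, edgeR adjusted p = 0.818) and -0.36 (SE 0.24, edgeR adjusted p = 0.307), and Cdk2 passed in neither. In all, 14 of the 24 S phase genes did not pass without control replicate 2, nor did 7116 of all 13753 genes tested. The log2 fold changes of these 14 lay between -0.22 and 0.16. The 4 calls made with 6 libraries (Mcm3, Rrm2, Fen1 and E2f1) were lost without APPswe replicate 1 or without APPswe replicate 3. Without APPswe replicate 2 those of Mcm3, Rrm2 and Fen1 were lost, and without control replicate 3 that of E2f1, at adjusted p-values up to 0.133 in edgeR's test. All 4 calls were kept in every fit that left out a further library after control replicate 2, as was that of Rrm1. Of the calls made only without control replicate 2, Mcm2 and Ung lost theirs when control replicate 1 or 3 was left out too, Ccne2 without control replicate 3 or APPswe replicate 2, and Cdt1 and E2f8 without control replicate 3.

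Of the mitotic cyclins and kinases, Ccna2, whose cyclin A2 acts from S phase into mitosis, had 31.2, 99.8 and 29.2 CPM in control and 45.8, 46.0 and 44.0 CPM in APPswe libraries. The APPswe libraries lay above control replicates 1 and 3 and below control replicate 2. It rose by a log2 fold change equal to 0.58 (SE 0.08, edgeR adjusted p = 0.000119) without control replicate 2, and stood at -0.24 (SE 0.46, edgeR adjusted p = 0.746) with it. Ccnb2, a B-type cyclin, rose by 0.45 (SE 0.09, edgeR adjusted p = 0.00194) without control replicate 2, from 21.4 and 19.98 CPM to 30.0, 28.3 and 26.6 CPM, with 53.3 CPM in control replicate 2. Ccnb1, the main mitotic cyclin, was at 0.11 (SE 0.09, edgeR adjusted p = 0.325) in that comparison and at -0.67 (SE 0.45, edgeR adjusted p = 0.321) with 6 libraries, and its kinase Cdk1 was at 0.17 (SE 0.09, edgeR adjusted p = 0.162) and -0.19 (SE 0.25, edgeR adjusted p = 0.62). Plk1, a kinase of mitotic entry and spindle assembly, passed without control replicate 2 at 0.26 (SE 0.10, edgeR adjusted p = 0.0458), as did Aurka, the kinase of the spindle poles, at 0.46 (SE 0.13, edgeR adjusted p = 0.0158). With 6 libraries Plk1 stood at -0.41 (SE 0.40, adjusted p = 0.494). The call of Aurka was lost when APPswe replicate 3 was left out as well as control replicate 2. With a further library left out its log2 fold change ranged from 0.35 to 0.57. Cdc25c, the phosphatase that activates Cdk1, passed in neither.

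Aurkb, the kinase of the chromosomal passenger complex, had 19.3, 42.0 and 19.98 CPM in control and 16.1, 14.7 and 16.9 CPM in APPswe libraries, so that the groups did not overlap, and fell by -0.30 (SE 0.10, edgeR adjusted p = 0.0248) without control replicate 2. With 6 libraries it was at -0.77 (SE 0.31, edgeR adjusted p = 0.121). The call without control replicate 2 was lost in 7 of 14 alternatives, 3 of them fits that left out a further library (control replicate 1, control replicate 3 or APPswe replicate 2), at adjusted p-values up to 0.12, and the others DESeq2, library totals only and limma on both FPKM scales. Birc5, which encodes survivin of the same complex, had 19.6, 53.6 and 22.3 CPM in control and 29.1, 30.0 and 31.5 CPM in APPswe libraries. It rose by 0.53 (SE 0.09, edgeR adjusted p = 0.000796) without control replicate 2 and stood at -0.078 (SE 0.37, edgeR adjusted p = 0.899) with it.

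The gene with the largest rise was Cenpf, which encodes a large kinetochore protein that accumulates in G2. It had 11.4, 33.3 and 10.5 CPM in control and 20.9, 19.5 and 20.1 CPM in APPswe libraries. Control replicate 2 was again the highest, and the APPswe libraries lay well above the other controls. The log2 fold change was 0.88 (SE 0.10, edgeR adjusted p = 3.54e-05) without control replicate 2, and 0.13 (SE 0.44, edgeR adjusted p = 0.854) with all 6, the only positive value among the 58 members in that comparison. Mki67, whose protein Ki-67 coats mitotic chromosomes and is the usual stain for dividing cells, had 93.7, 262 and 90.1 CPM in control and 105, 98.3 and 106 CPM in APPswe libraries. Its log2 fold change was 0.17 (SE 0.07, edgeR adjusted p = 0.06) without control replicate 2 and -0.53 (SE 0.41, edgeR adjusted p = 0.388) with it, and it passed in neither, though it passed without control replicate 2 in 5 of 14 alternatives. Top2a, the topoisomerase that untangles sister chromosomes, was at 0.047 (SE 0.08, edgeR adjusted p = 0.631) and -0.75 (SE 0.46, edgeR adjusted p = 0.276). The centromere genes Cenpa (0.25, adjusted p = 0.0264) and Cenpe (0.28, adjusted p = 0.0436) rose without control replicate 2 in edgeR's test. The call of Cenpe was lost when APPswe replicate 1 or 2 was left out too. With a further library left out its log2 fold change ranged from 0.19 to 0.38.

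The spindle checkpoint holds chromosome separation until all kinetochores are attached, and the anaphase-promoting complex with Cdc20 then releases it. Spdl1, which brings the motor dynein to kinetochores, had 17.3, 36.0 and 15.5 CPM in control and 9.59, 11.3 and 7.75 CPM in APPswe libraries, with no overlap. It fell by a log2 fold change equal to -1.27 (SE 0.35, edgeR adjusted p = 0.042), or -0.78 (SE 0.14, edgeR adjusted p = 0.00115) without control replicate 2. Its 6-library call was lost without control replicate 1 and without any one of the APPswe libraries, at adjusted p-values up to 0.152. It was also lost with a covariate for how the libraries were named (edgeR adjusted p = 0.112) and in limma on log2(FPKM + 1) and log2(FPKM + 0.1) (limma adjusted p = 0.0638 and 0.0605). Cdc20 had 20.4, 57.9 and 22.5 CPM in control and 26.8, 26.7 and 33.2 CPM in APPswe libraries. It rose by 0.43 (SE 0.11, edgeR adjusted p = 0.00961) without control replicate 2 and was at -0.22 (SE 0.40, edgeR adjusted p = 0.73) with it. The checkpoint kinase genes Bub1 and Ttk, the related Bub1b, and Ube2c, the ubiquitin-conjugating enzyme of the complex, passed in neither. Among the genes of the spindle and of cell cleavage, Kif2c (0.30, adjusted p = 0.0357) and Anln (0.33, adjusted p = 0.0184) rose without control replicate 2 in edgeR's test, and Kif11, Kif20b, Kif23, Nusap1, Tpx2, Ect2 and Hmmr passed in neither. In all, 16 of 29 G2/M genes did not pass without control replicate 2, nor did 7116 of all 13753 genes tested. The log2 fold changes of these 16 lay between -0.18 and 0.35. Of the 11 that rose, Ccna2, Ccnb2, Birc5 and Cenpf kept their calls when any further library was left out. Kif2c kept its call in none of these fits, and Plk1 and Cenpa in 1 of 5.

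The promoters of the members were searched for 3 sequence motifs known from cell cycle genes, since the S phase and G2/M classes stood high together in control replicate 2. RefSeq promoter sequences (build GRCm38.p6, 250 bases before to 50 after the start of transcription) were matched by symbol for 48 of the 58 genes, with 53 starts. The cell cycle genes homology region (CHR), an element of late cell cycle genes bound by the DREAM complex, was searched as TTTGAA or TTCGAA on both strands. It was found in 22 of 26 G2/M promoters (84.6%), 4 of 23 S phase promoters (17.4%) and 0 of 4 G1 cyclin promoters, beside 19.2% of all 32851 promoters. The G1 cyclin promoters were those of Ccnd3, Cdk4 and Cdk6, and those of Ccnd1 and Ccnd2 were not analysed here. The E2F element, searched as TTTCCCGC, TTTGGCGC, TTTCGCGC or TTTGCCGC on both strands, was found in 9 of 23 S phase promoters (39.1%), 1 of 26 G2/M promoters (3.85%) and 0 of 4 G1 cyclin promoters, beside 2.26% of all promoters. The box CCAAT, on both strands, was found in 21 of 26, 15 of 23 and 1 of 4, beside 37.4% of all promoters. The 150 bases before the start are shown for a pair of G2/M genes and a pair of S phase genes that stood 2.70 to 3.21 times as high in control replicate 2 as in the mean of the other controls, as examples of both architectures, with the matched letters of all 3 motifs in capitals. Cdc20 (chr4:118437344-118437493, minus strand) and Top2a (chr11:99024190-99024339, minus strand) hold CHR and CCAAT matches, Mcm6 (chr1:128359706-128359855, minus strand) holds CCAAT matches and 3 E2F matches, the first and second of which overlap, and Cdc6 (chr11:98908001-98908150, plus strand) holds 1 E2F match.
Cdc20: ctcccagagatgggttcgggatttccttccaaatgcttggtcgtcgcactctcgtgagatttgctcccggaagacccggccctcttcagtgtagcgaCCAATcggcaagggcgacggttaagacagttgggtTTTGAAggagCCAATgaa
Top2a: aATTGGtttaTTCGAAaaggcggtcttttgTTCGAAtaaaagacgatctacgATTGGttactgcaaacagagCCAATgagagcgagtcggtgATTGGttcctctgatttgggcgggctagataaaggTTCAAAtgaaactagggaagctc
Mcm6: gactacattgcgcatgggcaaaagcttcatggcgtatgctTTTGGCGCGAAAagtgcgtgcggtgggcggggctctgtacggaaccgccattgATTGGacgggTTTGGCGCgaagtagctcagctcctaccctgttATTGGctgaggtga
Cdc6: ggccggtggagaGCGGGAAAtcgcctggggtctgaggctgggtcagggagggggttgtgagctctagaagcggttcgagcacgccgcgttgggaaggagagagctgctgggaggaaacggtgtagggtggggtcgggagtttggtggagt
A match is a run of letters and was not tested as a binding site. A link between the motifs and the levels was not tested either. Over all S phase genes the median factor of control replicate 2 was 1.80, below that of both S phase examples shown.

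Other genes of the cell cycle, from lists set up beside the members, were counted in the same fits, where 10.5% of all genes tested were higher and 12.0% lower with 6 libraries, and 23.3% and 25.0% with 5. Of 38 other S phase genes, 1 was higher and 0 lower with all 6 libraries, and 2 were higher and 6 lower without control replicate 2, with medians of -0.41 and -0.055. Of 41 other G2/M genes, 0 were higher and 3 lower with 6 libraries, and 13 were higher and 6 lower with 5, with medians of -0.33 and 0.13. Of 18 regulators of the RB, E2F and DREAM families, 1 was higher and 0 lower with 6 libraries, and 2 were higher and 2 lower with 5. Control replicate 2 was the highest library for 37 of the 38, 37 of the 41 and 11 of the 18 genes, against 28.0% of all genes tested. No gene of these lists passed the study's fold threshold in either comparison. The 5 genes that passed with 6 libraries, named after their values were seen, also passed with 5. They were Dut (0.58, adjusted p = 0.0427), which removes dUTP, and E2f5 (0.50, adjusted p = 0.0347), a repressing E2F, among the higher, and Gtse1 (-0.90, adjusted p = 0.00158), Tubb4b (-0.43, adjusted p = 0.015) and Incenp (-0.73, adjusted p = 0.0338), the scaffold of the chromosomal passenger complex, among the lower, all by edgeR's test with 6 libraries.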

How the data were processed

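Bulk RNA sequencing of 3 control and 3 APPswe libraries was analysed, with groups and replicate numbers taken from the sample titles and library names from their descriptions. The authors deposited raw read counts, with no normalization, for each gene. Rounded FPKM values, also made by the authors, served for levels between genes and for alternatives. The genome build is GRCm38 per the submitters' processing notes, and the aligner and counting tool are not given in the sources used here. The deposited fold changes and p-values are the authors' own comparison and were not used.

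In R 4.3.3, counts were normalized by TMM, filtered by filterByExpr and compared with the quasi-likelihood test of edgeR 4.0.16, with Benjamini-Hochberg adjustment over all genes tested (13484 with 6 libraries, 13753 without control replicate 2). Standard errors (SE) were derived by dividing the absolute fold change on the log2 scale by the root of F. CPM use TMM-scaled library sizes over all 6 libraries, and class levels are means of log2 CPM after adding 0.5 counts. Total counts were 17263757 to 18398392 per library, at which 3 counts, taken as the floor, are 0.167 to 0.173 CPM; this covers counting error only. Fold changes, standard errors and adjusted p-values are given for 22 defining members and for those called past the fold threshold of the study (log2 scale, 1 or more); the same is given for other members that passed, which were chosen after their values were seen, and the rest are given by values or counts. The members, classes, lists and tests were chosen with earlier results of these data known. No pair of libraries agreed within sampling noise (chi-square over degrees of freedom was 1.59 for APPswe replicates 2 and 3 and at least 6.17 for every other pair). Each library was counted as 1 replicate, although this check cannot tell repeat preparations of the same cells from separate cultures. Whether APPswe replicates 2 and 3 share a culture is not given in the sources used here. Deviations of libraries with equal replicate numbers correlated at 0.0695, -0.0337 and 0.143, so the numbers were not taken as pairs. Alternatives were DESeq2 1.42.0, other normalizations and filters, a replicate block, the style of the library names, limma 3.58.1 on FPKM of genes with at least 1 FPKM in 2 libraries, and each library left out. The fit was tested on simulated data.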

Additional observations from a re-analysis of the deposited data

How the results depend on the processing

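With all 6 libraries, 8 members were lower, against 5 with a covariate for how the libraries were named, 2 with the fold threshold, 2 to 13 with 1 library left out (2 without APPswe replicate 1 or 3, 3 without APPswe replicate 2, 13 without control replicate 2), and 7 with a replicate block. The members counted as higher stayed at 0, apart from 13 without control replicate 2. The G1 cyclin median was -0.37 in limma on log2(FPKM + 1) and -0.53 to -0.38 with 1 library left out. Without control replicate 2, 13 members were higher, against 8 in DESeq2, 20 with a replicate block, 0 with the fold threshold and 6 to 12 with a further library left out (6 without control replicate 3, 8 without APPswe replicate 2). The 13 lower became 1 with the fold threshold, 17 with the block and 8 to 14 with a further library left out (8 without control replicate 3). The replicate numbers did not pair the libraries, and not every library correlated best with its own number. In the main fits 12.0% of all genes tested were lower with 6 libraries, and 23.3% were higher and 25.0% lower without control replicate 2. The share of all genes called under the other settings is not given here. The counts under those settings are therefore no result about the members.

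In the same comparison the S phase median was 7.9e-05 with library totals only and -0.022 on log2(FPKM + 1). That of G2/M was 0.24 with library totals, 0.21 with the block, 0.22 on log2(FPKM + 1), 0.24 on log2(FPKM + 0.1) and 0.13 to 0.22 with a further library left out. That of the G1 cyclins was -0.31 with library totals, -0.30 on both FPKM scales and -0.48 to -0.28 with a further library left out. Without TMM or on FPKM scales the median of all genes itself moved by at most 0.082. Taken as the log2 of summed CPM, relative to the mean of all 6 libraries, the G1 cyclin class stood at 0.33 and 0.45 in control replicates 1 and 3 and at -0.45, -0.38 and -0.38 in the APPswe libraries. Ccnd1 weighed heavily in this sum. In control replicates 1, 2 and 3 the sum was 1929, 2063 and 2100 CPM, of which Ccnd1 held 989.6, 964 and 1072 CPM. In APPswe libraries the sum was 1121 to 1180 CPM, and Ccnd1 held 348 to 367 CPM.

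Directions turned for some genes that did not pass. With 6 libraries, Ccna2 was at 0.0092 with the block, 0.045 with the name style, 0.062 on log2(FPKM + 1) and 0.079 on log2(FPKM + 0.1). Cdc20 was at 0.014 and 0.021 on these FPKM scales, and Birc5 at 0.072 with the block, 0.061 with the name style, and 0.19 and 0.20 on the FPKM scales. With 1 library left out the ranges, whose upper ends are without control replicate 2, were -0.79 to 0.17 for Mki67, -1.05 to 0.047 for Top2a, -1.01 to 0.44 for Ccne2, -0.54 to 0.58 for Ccna2, -0.96 to 0.11 for Ccnb1, -0.37 to 0.17 for Cdk1, -0.67 to 0.26 for Plk1, -0.48 to 0.43 for Cdc20 and -0.33 to 0.53 for Birc5. Without control replicate 2, Cdc6 was at 0.065 with library totals, 0.0012 with the name style, and 0.043 and 0.064 on the FPKM scales, Ccne1 at 0.044, 0.042 and 0.045 and Cdk4 at 0.036, 0.040 and 0.041 with library totals and on the FPKM scales. With a further library left out, Top2a ranged from -0.025 to 0.12, Cdc6 from -0.12 to 0.11 and Ccne1 from -0.065 to 0.0045. Some calls also changed side. Without control replicate 2, Mki67 gained a call with library totals, the block, the name style and on both FPKM scales, and Pcna, Mcm5, Cdk1 and Ccnd3 with the block and the name style. Mcm2 lost its call on both FPKM scales, Ccne2 in DESeq2, and Plk1 in DESeq2 and with no filter. With 6 libraries Mcm2 gained one in DESeq2. The causes were not tested.

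With 3 libraries against 3, or 2 against 3, few libraries stand behind each call. Where a further control was left out after control replicate 2, the lone control library was assumed to vary like the APPswe libraries.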

Other observations

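Ratios of CPM between 6 pairs of genes within each library were chosen and computed after the members' values were seen. Cenpf over Mki67 was 0.122, 0.127 and 0.116 in control replicates 1, 2 and 3, and 0.198, 0.198 and 0.191 in APPswe libraries. Here control replicate 2 lay with the other controls, and the mean was 0.122 ± 0.00522 in control and 0.196 ± 0.00443 in APPswe libraries (SD, n = 3 each). Birc5 over Aurkb, both of the chromosomal passenger complex, was 1.02, 1.28 and 1.12 in control and 1.81, 2.05 and 1.86 in APPswe libraries. Birc5 over Incenp, the scaffold of that complex, was 0.259, 0.432 and 0.272 in control and 0.50, 0.532 and 0.562 in APPswe libraries. For each of these ratios the groups did not overlap. The ratios are a description, since the pairs were picked for their values. An exact permutation of the library labels cannot reach a two-sided p under 0.1 with 3 libraries against 3, so it decides nothing here.

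A second kind of ratio placed control replicate 2 with the APPswe libraries. Mcm3 over Mcm6, subunits of the same helicase, was 0.989 and 1.12 in control replicates 1 and 3, 0.650 in control replicate 2, and 0.639, 0.680 and 0.638 in APPswe libraries. Rrm1 over Rrm2, the subunits of ribonucleotide reductase, was 1.26 and 1.16 in control replicates 1 and 3, 2.11 in control replicate 2, and 2.17, 1.98 and 1.96 in APPswe libraries. Ccna2 over Mcm2, a G2/M gene over an S phase gene, was 0.738 and 0.686 in control replicates 1 and 3, 1.20 in control replicate 2, and 1.37, 1.28 and 1.23 in APPswe libraries, so that it lay just below them.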
